A study of Mus musculus with 14 samples.

Results

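Erythroid genes, 8 in all, were followed across purified hematopoietic stem cells (HSC) and whole bone marrow (WBM) of the mouse. They are Epor, Gata1, Klf1, Alas2, Slc4a1, Rhd, Ermap and Car1, taken as every probe set whose only gene symbol is 1 of these names, which gave 8 of the 12393 genes measured and 10 of the 22626 probe sets on the Affymetrix MOE430A array. HSC were sorted from male C57Bl/6 mice as side population cells, which pump out the dye Hoechst, and were also c-Kit+, Sca-1+ and negative for lineage markers. The lineage antibodies included Ter119, a marker of maturing red cells, so erythroid cells that carry it were gated out before any RNA was measured. Wild-type (WT) HSC were taken at 2, 6, 12 and 21 mo, HSC of p53+/m and of p53+/- mice at 12 mo, and WT WBM at 2 mo. The WT mice are given as C57Bl/6 CD45.1 in the study's methods, and the p53 mutants as lines crossed back to C57Bl/6 over several generations, so in the genotype comparisons a remainder of another background cannot be told apart from genotype. The p53+/m mice carry a truncated p53 allele that augments p53 activity, and the p53+/- mice have only 1 working copy of p53. Each of these 7 groups has 2 arrays, named A and B, for 14 in all. Each HSC array holds RNA pooled from several mice, and per the labels the RNA of every sample was amplified by in vitro transcription. One field of the labels gives an age of 2 mo for all samples, whereas the titles and the treatment field give the ages used here. Nothing in the labels says that arrays A and B of a group came from separate sorts, so a p-value here measures only the spread between these arrays.

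Red blood cells are made in the marrow from progenitors that pass through dividing erythroblast stages. The hormone erythropoietin keeps these progenitors alive by binding its receptor, Epor, and the transcription factors Gata1 and Klf1 then switch on the genes of the red cell, which include the enzymes of heme synthesis, the proteins of the cell membrane and the enzymes of the cytosol. Whole marrow is rich in erythroblasts, while a stem cell stands at the start of the lineage.

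All values are the authors' GC-RMA levels, on the log2 scale, 1 per probe set. A level of log2 5 was used as a detection line. Of 32 genes of other organs that marrow does not use, 27 were measured, and all 378 of their values lay under this line, from 1.02 to 4.91. After the authors' normalization the arrays were alike in their distributions, with medians between 3.93 and 4.10 and between 42.7% and 43.6% of probe sets at or above the line. Likeness after normalization does not show that RNA or hybridization was alike. Probe sets differ in how brightly they hybridize, so levels were compared between samples and not between genes.

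In the annotation of GRCm38.p6 all of these genes are protein-coding. Epor lies at chr9:21958897-21963576, Gata1 at chrX:7959260-7976663, Klf1 at chr8:84901982-84905291 and Alas2 at chrX:150547417-150570622. Slc4a1 lies at chr11:102348820-102365281, Rhd at chr4:134864536-134896172, Ermap at chr4:119175457-119190013 and Car1 at chr3:14766214-14808365. They are therefore spread over 6 chromosomes, and the pairs that share one are Gata1 with Alas2 on X and Rhd with Ermap on 4.

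The bases just before the start sites of these genes are printed as a description. They are given for the 6 genes that RefSeq's promoter table for GRCm38.p6 holds, in the order Epor, Gata1, Klf1, Alas2, Rhd and Ermap. The windows run 5′ to 3′ on the gene's own strand and cover the 150 bases before the start site, at chr9:21963577-21963726 (minus strand), chrX:7967911-7968060 (minus strand), chr8:84901832-84901981 (plus strand), chrX:150547267-150547416 (plus strand), chr4:134864386-134864535 (plus strand) and chr4:119190014-119190145 (minus strand). The window of Gata1 lies within the annotated span of the gene, and for Ermap the last 18 bases, which run into its annotated span, were cut off, so 132 are printed. Capitals mark the letters that GATA factors are known to read (GATA with an A or T before it and an A or G after it) and the CACCC box read by Kruppel-like factors, each searched on both strands.
Epor: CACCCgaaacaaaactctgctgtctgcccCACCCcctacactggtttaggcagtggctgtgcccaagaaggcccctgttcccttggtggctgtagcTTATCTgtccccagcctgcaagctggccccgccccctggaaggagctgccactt
Gata1: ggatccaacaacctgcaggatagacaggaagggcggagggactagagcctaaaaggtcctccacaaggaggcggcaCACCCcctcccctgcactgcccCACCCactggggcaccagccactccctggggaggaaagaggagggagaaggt
Klf1: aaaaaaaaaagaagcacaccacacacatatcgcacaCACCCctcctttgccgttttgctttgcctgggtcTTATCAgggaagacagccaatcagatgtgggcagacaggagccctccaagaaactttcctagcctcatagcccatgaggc
Alas2: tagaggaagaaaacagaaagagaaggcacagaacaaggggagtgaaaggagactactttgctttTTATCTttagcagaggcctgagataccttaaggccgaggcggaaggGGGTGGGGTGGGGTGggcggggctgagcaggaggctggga
Rhd: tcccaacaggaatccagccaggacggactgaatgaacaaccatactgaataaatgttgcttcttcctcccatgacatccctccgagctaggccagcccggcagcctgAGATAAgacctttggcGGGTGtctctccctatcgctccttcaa
Ermap: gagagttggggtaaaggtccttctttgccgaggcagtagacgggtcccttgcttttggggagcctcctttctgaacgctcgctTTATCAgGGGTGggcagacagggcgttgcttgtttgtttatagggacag
The GATA letters were present in 5 of the 6 windows, all but that of Gata1, and in 16.0% of all 32851 windows of this length in the table. The CACCC letters were present in 6 of 6 windows and in 37.4% of all windows. In Epor, Klf1, Alas2 and Ermap the GATA letters lie on the opposite strand, so they are printed as their complement read 5′ to 3′, TTATC and 1 more base, and in Rhd they lie on the gene's own strand. In Alas2 the CACCC letters come 3 times on the opposite strand with no base between them. In Ermap a single base separates the GATA letters from the CACCC letters. A match of letters is a description of the sequence and does not show that a factor binds there.

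The first comparison asked how far below whole marrow the erythroid genes lie in stem cells. All 8 genes were lower in HSC of 2 mo than in WBM of 2 mo, with log2 differences between -12.19 (Alas2) and -3.22 (Epor). By the same rule (limma, Benjamini-Hochberg adjusted p under 0.05 over all probe sets and at least 2-fold), 10.7% of all genes were lower. The median fitted difference of the 8 was -9.42, against -0.01 for all 12393 genes, and with the HSC set at the detection line of log2 5 the median height of the 8 WBM means above it was 6.52. No gene of the 8 reached log2 5 on any of the 12 HSC arrays, whereas all 8 did on both WBM arrays. In bulk RNA fewer cells of a type and less RNA per cell cannot be told apart. Since the HSC levels are at the bottom of the scale, the ratio of the WBM mean to the detection line is given below as a lower limit of the fold ("at least").

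**Figure D1:**
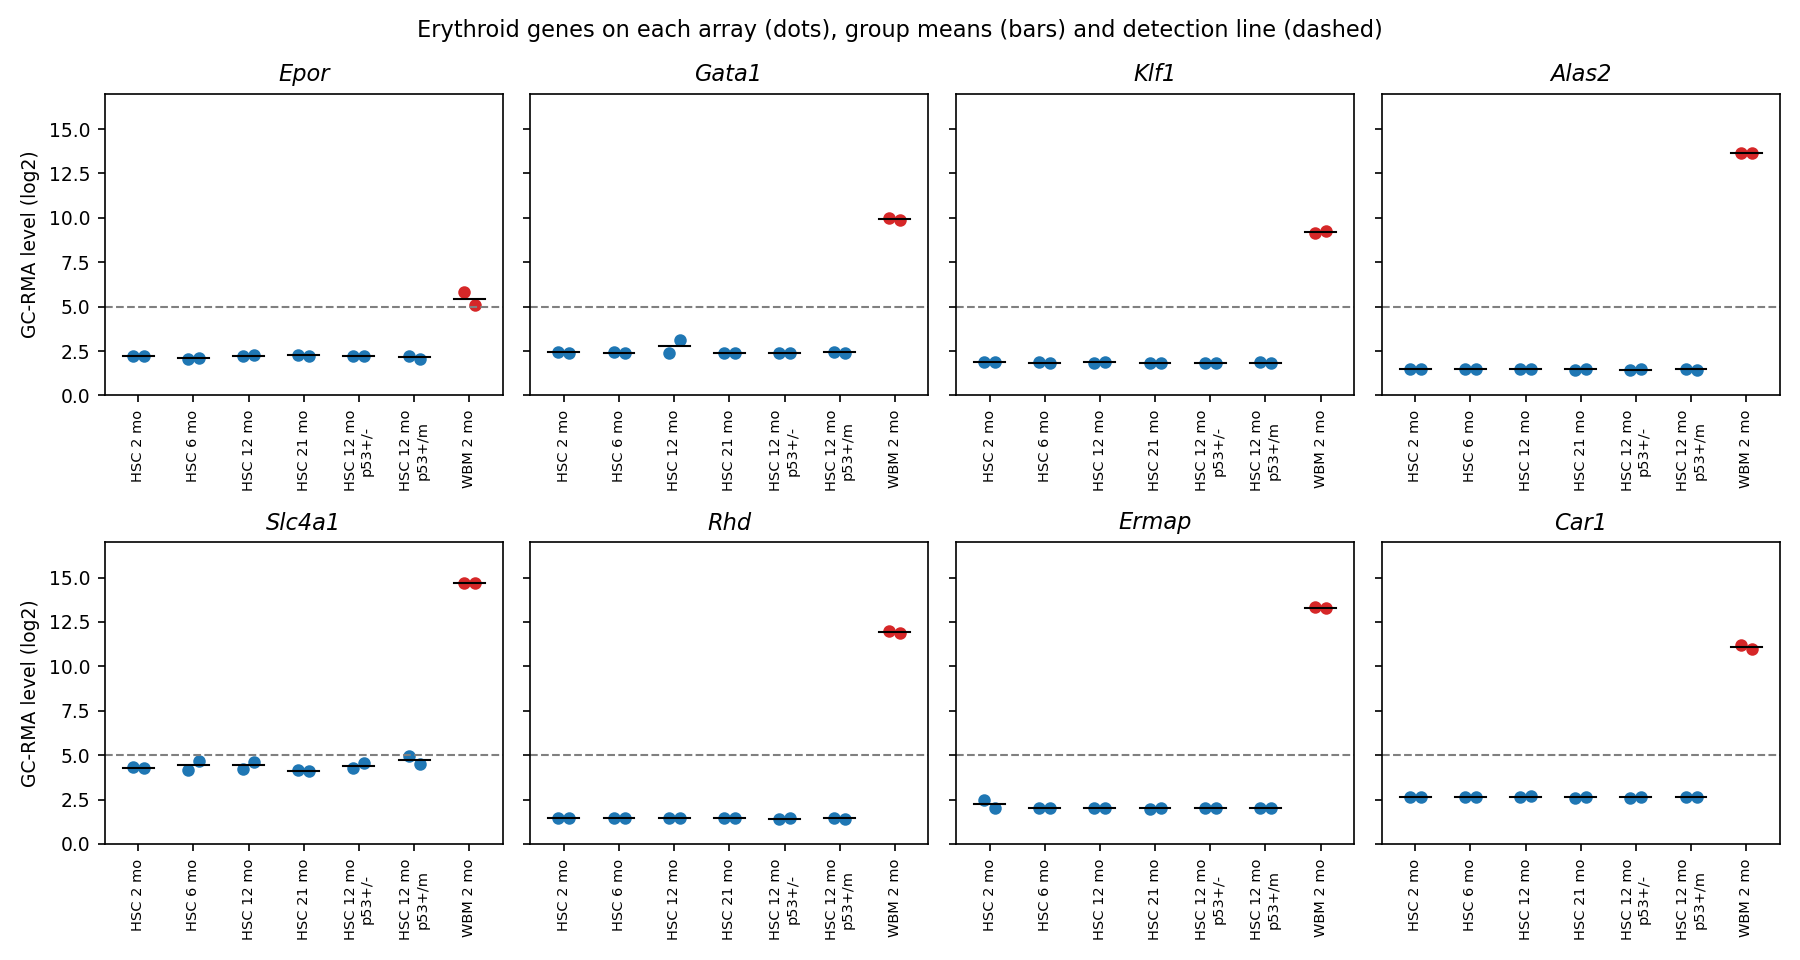
Level of each erythroid gene (y axis, GC-RMA, log2) on each of the 14 arrays (dots), by group (x axis), with the mean of the 2 arrays of a group as a bar and log2 5 as a dashed line. The HSC arrays (blue) lie below the line for all 8 genes, and the WBM arrays (red) above it, with Epor at 5.80 and 5.10 nearest to it.

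Epor, the erythropoietin receptor (probe set 1423344_at), had the lowest level in WBM relative to the detection line. It stood at 5.80 and 5.10 on the WBM arrays, the widest gap between the WBM arrays among the 8. In HSC it read 2.25 and 2.21 at 2 mo, 2.07 and 2.10 at 6 mo, 2.21 and 2.26 at 12 mo and 2.30 and 2.23 at 21 mo, with 2.20 and 2.20 in p53+/- and 2.20 and 2.08 in p53+/m. Both arrays of 6 mo and array B of p53+/m read lowest among the HSC arrays, and all 12 lay below both WBM arrays with no overlap. HSC of 2 mo differed from WBM by -3.22 ± 0.21 (SE; limma adjusted p = 1.95e-04). With the HSC at the bottom of the scale, this is at least 1.36-fold higher in WBM, the smallest lower limit of the 8.

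Gata1, the zinc finger factor of erythroid cells and megakaryocytes (1449232_at), read 9.99 and 9.86 in WBM. In HSC it read 2.46 and 2.41 at 2 mo, 2.42 and 2.41 at 6 mo, 2.41 and 3.12 at 12 mo and 2.39 and 2.41 at 21 mo. The mutants gave 2.38 and 2.40 (p53+/-) and 2.45 and 2.41 (p53+/m). Array B of the 12 mo WT group thus stood above the other 11 HSC arrays, the next highest at 2.46, and was still under the detection line. On that array the mean over the genes of other organs, 2.984, was also the highest of the 14 arrays. Array A of p53+/m had nearly the same mean, 2.981, with Gata1 at 2.45. The part of this mean in the Gata1 value was not tested. HSC of 2 mo differed from WBM by -7.50 ± 0.21 (SE; limma adjusted p = 5.91e-06), at least 30.5-fold. Klf1, the erythroid Kruppel-like factor (1418600_at), read 9.16 and 9.28 in WBM and between 1.82 and 1.88 on the 12 HSC arrays, with a median of 1.85. Its difference at 2 mo was -7.34 ± 0.04 (SE; limma adjusted p = 6.87e-09), at least 18.6-fold.

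Alas2, the erythroid form of 5-aminolevulinate synthase, makes the first intermediate of heme. Its probe set (1451675_a_at) read 13.67 on both WBM arrays and between 1.45 and 1.48 on the 12 HSC arrays, with a median of 1.47. The difference at 2 mo was -12.19 ± 0.03 (SE; limma adjusted p = 2.73e-10), at least 406-fold.

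Among the membrane proteins, Rhd, the Rh blood group protein (1417049_at), read 12.01 and 11.90 in WBM. Its 12 HSC arrays lay between 1.42 and 1.46, with a median of 1.44, and its difference at 2 mo was -10.51 ± 0.04 (SE; limma adjusted p = 1.24e-09), at least 124-fold. Ermap, an erythroid membrane protein related to butyrophilins (1418909_at), read 13.35 and 13.26 in WBM. In HSC it read 2.46 on array A of the 2 mo group and between 1.99 and 2.04 on the other 11 arrays, and it differed from WBM at 2 mo by -11.07 ± 0.14 (SE; limma adjusted p = 1.35e-07), at least 317-fold. As for Gata1, 1 array stood above the other HSC arrays and under the detection line.

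Slc4a1, the band 3 anion exchanger of the red cell membrane, is read by 3 probe sets, and these did not give the same picture. The brightest, 1434502_x_at, stood at 14.69 and 14.71 in WBM, and in HSC it read 4.31 and 4.30 at 2 mo, 4.19 and 4.66 at 6 mo, 4.25 and 4.60 at 12 mo and 4.15 and 4.12 at 21 mo. The mutants gave 4.25 and 4.56 (p53+/-) and 4.94 and 4.52 (p53+/m). Array A of p53+/m, at 4.94, came nearest to the detection line of any HSC reading of the 8 genes. The difference at 2 mo was -10.39 ± 0.17 (SE; limma adjusted p = 5.04e-07), at least 830-fold. The probe set 1416464_at read 12.88 and 12.52 in WBM and 2.44 to 2.61 in HSC, at least 208-fold. The remaining one, 1431743_a_at, read 2.82 and 2.79 in WBM and 2.72 to 2.81 in HSC, so it was near the bottom of the scale in both and was not called. It was the exception among the 10 probe sets, of which 9 were called lower.

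Car1, carbonic anhydrase I of the cytosol (1416193_at), read 11.19 and 10.98 in WBM. The 12 HSC arrays lay between 2.61 and 2.69, with a median of 2.64. The difference at 2 mo was -8.44 ± 0.07 (SE; limma adjusted p = 2.53e-08), at least 68-fold. The standard errors of these genes are small partly by construction, since GC-RMA compresses readings near the background to a narrow band. The genes of other organs spanned a median of 0.20 across the 12 HSC arrays.

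The same comparison was made for HSC of each later age. The WBM arrays are those of 2 mo mice, so older HSC differ from WBM in age as well as in cell type, and the 4 comparisons share the WBM arrays. All 8 genes were called lower at 6 mo, at 12 mo and at 21 mo, against 10.3%, 9.36% and 8.49% of all genes. Over the 4 ages the difference of Alas2 lay between -12.20 and -12.19, that of Rhd was -10.51 at each age, and that of Klf1 lay between -7.39 and -7.34. Those of Car1 lay between -8.47 and -8.42, of Ermap between -11.30 and -11.07, and of Slc4a1 between -10.56 and -10.27. Gata1, with the high array of 12 mo, lay between -7.53 and -7.17, and Epor between -3.36 and -3.18. The largest limma adjusted p of any gene at any age was that of Epor, 2.11e-04. The 18S rRNA control read from its 5′ side stood at 10.91 and 10.88 on the HSC arrays of 2 mo and 5.33 and 5.14 on the WBM arrays, with 11.19 and 8.28 at 6 mo, 4.66 and 9.68 at 12 mo and 4.84 and 5.44 at 21 mo. In the mutants it stood at 8.93 and 7.97 (p53+/-) and at 5.71 and 7.18 (p53+/m). The part of this in the differences between HSC and WBM, between ages or between genotypes was not tested.

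**Figure D2:**
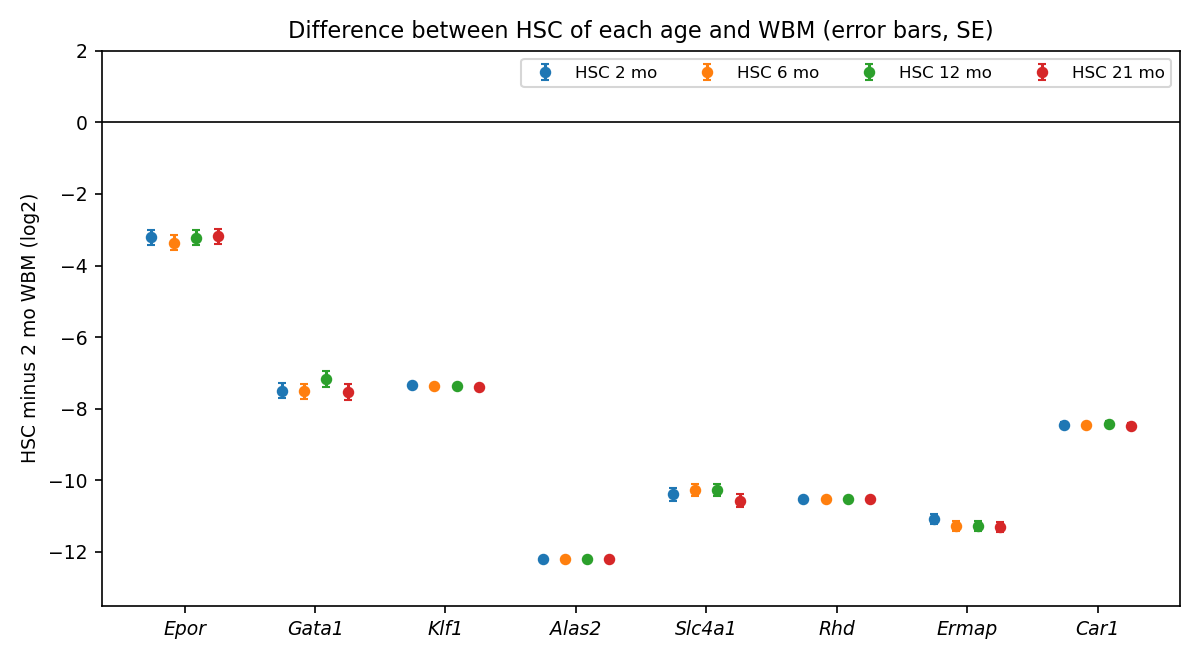
Difference between HSC of each age and WBM of 2 mo (y axis, log2) for the 8 erythroid genes (x axis), with the standard error from limma as error bars. The 4 ages of a gene lie close together, from -12.20 to -12.19 for Alas2 and from -3.36 to -3.18 for Epor.

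The second comparison asked whether the erythroid genes change as HSC age. None of the 8 passed the test. By the quadratic trend over the 8 WT HSC arrays, the change from 2 to 21 mo over the 10 probe sets ranged from -0.20 to 0.09, with no unadjusted p under 0.05 and a smallest limma adjusted p of 0.448. Over all genes 2.04% were called lower and 1.46% higher with age. The change was -0.20 ± 0.13 (SE) for Ermap (-0.01 without array A of 2 mo, its high array), -0.18 ± 0.16 for Slc4a1, 0.09 ± 0.07 for Epor and 0.05 ± 0.22 for Gata1 (-0.04 where group means replaced the trend), and within 0.05 of 0 for Klf1, Alas2, Rhd and Car1. Every HSC level of the 8 was under the detection line, where a reading may be background of the probe set, so these values do not show whether transcripts at such levels changed.

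The third comparison asked whether p53 activity moves these genes in HSC of 12 mo. None of the 8 passed the test in any of the 3 genotype comparisons. Between p53+/m and WT the differences over the 10 probe sets ranged from -0.33 to 0.30 (smallest limma adjusted p = 0.655), and 0.307% of all genes were called lower and 0.137% higher. Between p53+/- and WT they ranged from -0.37 to 0.01 (smallest limma adjusted p = 0.748), and 0.113% of all genes were called lower and 0.0807% higher. Between p53+/m and p53+/- they ranged from -0.06 to 0.32 (smallest limma adjusted p = 0.822), and 0.129% of all genes were called lower and 0.0888% higher. The largest differences from WT were those of Gata1, at -0.37 ± 0.19 (SE) in p53+/- and -0.33 ± 0.19 in p53+/m, which rest on array B of the 12 mo WT group. With array A of that group left out, array B alone stood for WT, and Gata1 differed by -0.73 and -0.69 (limma adjusted p = 0.00139 and 0.00164), less than 2-fold. In that fit the lone array is assumed to vary like the other groups, and every Gata1 reading in HSC was under the detection line. Slc4a1 was 0.30 ± 0.21 (SE) above WT in p53+/m, and its arrays overlapped with those of WT.

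Close relatives of the 8 genes were not uniformly low in HSC. Of 14 relatives listed, 12 were measured, and in HSC of 2 mo 3 were higher than in WBM, 4 lower, and 5 did not pass. Among all 12393 genes 1643 were higher and 1320 (10.7%) lower. Gata2, the GATA factor of stem and progenitor cells, read 9.61 in HSC and 5.73 in WBM, a difference of 3.88 ± 0.28 (SE; limma adjusted p = 3.10e-04), while its relative Gata1 was at the bottom of the scale there. Gata3 was higher by 3.40 ± 0.31 and Slc4a2, a widely used anion exchanger, by 2.41 ± 0.36. Rhag, the Rh-associated glycoprotein, was lower by the same comparison at -8.87 ± 0.08, Csf2rb, the common beta chain of several cytokine receptors, at -3.38 ± 0.05, and Klf2 at -3.22 ± 0.57. Every reading of Gata3 in WBM, and of Rhag and Csf2rb in HSC, was under the detection line, so their fitted differences give no order. Car2, the other main carbonic anhydrase of the red cell, read 11.74 in HSC and 13.79 in WBM (-2.05 ± 0.20; limma adjusted p = 0.00109), so it was well above the detection line in both where Car1 was not. Alas1, the form of 5-aminolevulinate synthase used by cells other than erythroid ones, read 7.11 in HSC and 9.07 in WBM and did not pass (adjusted p = 0.0673). No relative was called with age or between genotypes.

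The genes that work with the 8 were read from 7 lists. In heme synthesis, 9 of 11 genes measured were lower in HSC of 2 mo and none was higher, with a median of -2.97. Fech, which inserts iron into the heme ring, read 6.90 in HSC and 12.81 in WBM (-5.91 ± 0.28 SE), and Uros, an enzyme midway in the pathway, read 5.65 and 11.32 (-5.67 ± 0.16). The transporters Tmem14c and Abcb10 of the mitochondrion were lower at -5.01 ± 0.69 and -4.90 ± 0.21. Unlike Alas2, 9 of these 11 genes reached the detection line on at least 1 HSC array.

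Of 14 genes of iron supply, 7 were lower and 2 higher (median -1.57). Tfrc, the transferrin receptor through which erythroblasts take up iron, read 9.64 in HSC and 14.33 in WBM (-4.69 ± 0.31 SE), and the mitochondrial iron carrier Slc25a37 read 7.29 and 13.22 (-5.93 ± 0.56). The iron exporter Slc40a1 was lower at -5.75 ± 0.24 and the iron importer Slc11a2 at -4.77 ± 0.24, the latter with every HSC reading under the detection line. The genes that were higher were Slc25a28, a relative of Slc25a37, at 3.19 ± 0.27, and Tfr2, the second transferrin receptor, at 2.69 ± 0.09.

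Of 21 genes of the red cell membrane, 16 were lower and 1 higher (median -3.14). Among the lower ones were Rhag, the blood group protein Kel (-8.69 ± 0.03 SE), the band 3 partner Epb42 (-8.47 ± 0.17) and the cytoskeletal protein Dmtn (-6.99 ± 0.11), all with HSC readings under the detection line, so these fitted differences give no order. The one that was higher was the glucose transporter Slc2a1, at 3.77 ± 0.33. Of 13 red cell enzymes and maturation genes, 12 were lower (median -2.66), among them Trim10, Tspo2, Alox15 and Blvrb, again with every HSC reading under the line, while their WBM means were 11.78, 8.61, 7.67 and 8.04. Only 6 of 10 globin and globin chaperone genes have a probe set of their own here, and 1 was called, Hbb-b2, an adult beta globin, at 2.52 in HSC and 8.45 in WBM. The other 5 did not pass. The alpha globins Hba-a1 (3.01 and 3.01) and Hba-a2 (3.86 and 3.62) were under the detection line on both WBM arrays. Hba-a2 reached the line on 3 of 12 HSC arrays, with a highest reading of 5.23. These probe sets therefore do not show whether alpha globin was lower in HSC. Globin probe sets that carry several symbols were not read.

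The transcription factors and signaling genes of the lineage were more mixed. Of 20 erythroid transcription factors and cofactors, 7 were lower and 3 higher (median -0.94), and 19 reached the detection line in HSC. Hemgn (-7.58 ± 0.70 SE), Sox6 (-4.68 ± 0.39), Foxo3 (-2.32 ± 0.37) and Nfe2 (-2.17 ± 0.34) were lower, and Ldb1, a cofactor that bridges GATA factor complexes, was higher at 4.28 ± 0.22, as were Gata2 and Bcl11a. Every HSC reading of Hemgn and both WBM readings of Ldb1 (3.10 and 3.60) were under the detection line, so their fitted differences give no order. Of 19 genes of erythropoietin signaling, 4 were higher and 2 lower (median 0.07). The higher ones were Socs2 (6.02 ± 0.89 SE), Socs3 (4.68 ± 0.17) and Cish (4.15 ± 0.27), which are feedback inhibitors of cytokine receptors, and the adaptor Gab1 (1.14 ± 0.21). Socs2 was under the detection line on both WBM arrays (4.78 and 4.71). The lower ones were the survival gene Bcl2l1 (-2.89 ± 0.10) and the adaptor Grb2 (-1.59 ± 0.39). Bcl2l1 had a mean of 4.90 in HSC of 2 mo and reached the line on 2 of 12 HSC arrays. The count of lower genes became 1 when any array of 2 mo HSC, 21 mo HSC or WBM was left out. These genes serve other cytokine receptors too, and Epor itself was under the detection line in HSC. Beside these counts, 1643 genes were higher and 1320 lower among all 12393.

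**Figure D3:**
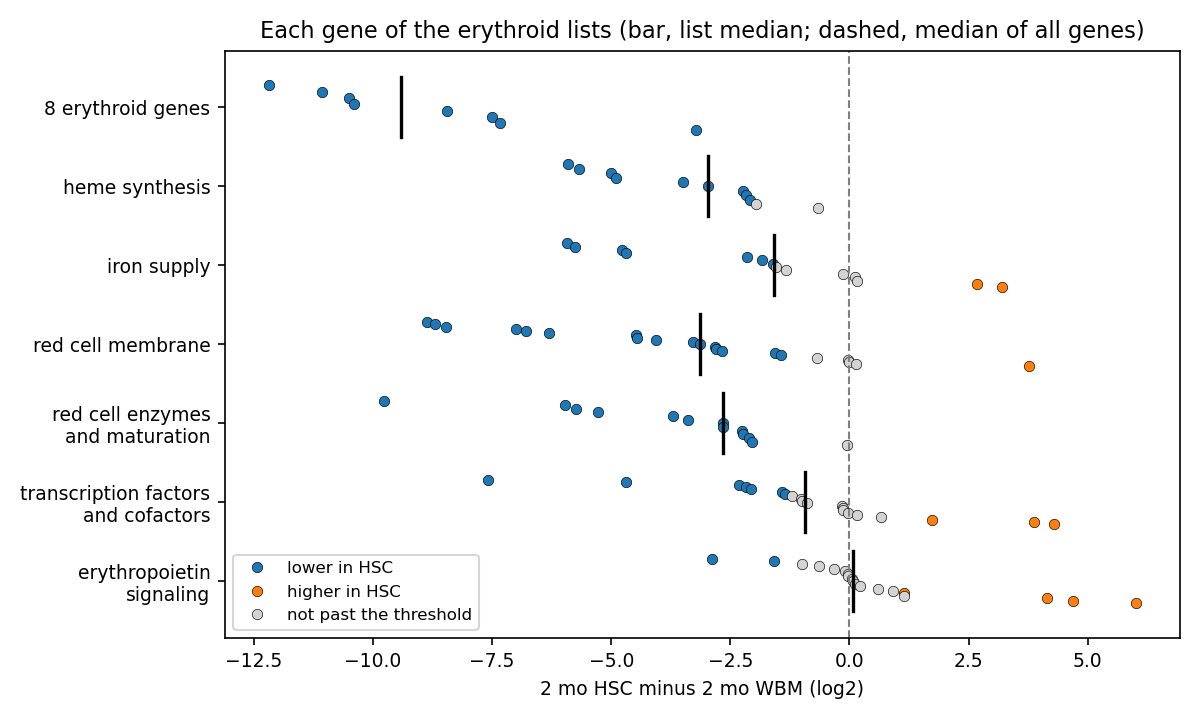
Difference between HSC and WBM of 2 mo (x axis, log2) for each gene (dots) of the 8 erythroid genes and of 6 lists of the pathway (y axis), colored by whether it passed the test, with list medians as bars and the median of all genes as a dashed line. The 8 genes have a median of -9.42 and erythropoietin signaling one of 0.07. The globin list is not drawn.

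With age, few genes of these lists moved over the 8 WT HSC arrays, and none of the red cell membrane, red cell enzyme or globin lists did, beside the 2.04% of all genes that were called lower and the 1.46% called higher. In heme synthesis 2 of 11 fell, Ppox by 1.88 on the log2 scale and Alad by 1.42, and in iron supply 2 of 14 fell, Slc25a28 by 1.54 and Iscu, a scaffold for iron-sulfur clusters, by 1.29. Ldb1 fell by 1.91 among the transcription factors, and Socs3 rose by 1.34 in erythropoietin signaling. The limma adjusted p of these 6 genes lay between 0.0157 (Ldb1) and 0.0437 (Alad and Slc25a28). The rRNA control given above differed between these ages as well, and its part in these changes was not tested. The calls depended on single arrays. With each array left out in turn, and with both arrays of 12 mo left out, Ldb1 kept its call in 8 of 9 settings (without array B of 2 mo the adjusted p was 0.0707), Ppox in 5, Iscu in 4 and Alad, Slc25a28 and Socs3 in 3. Ppox lost its call without either array of 2 mo or of 21 mo (adjusted p up to 0.0924). Iscu lost it without any of these or without array A of 6 mo (up to 0.127), and Alad, Slc25a28 and Socs3 lost it without any array of 2, 6 or 21 mo (up to 0.185). All 6 kept their direction. Without both arrays of 12 mo, 5.51% of all genes were called lower and 4.65% higher, and the counts that rose became 2 of 21 for the red cell membrane, 2 of 14 for iron supply, 2 of 20 for transcription factors, 2 of 19 for erythropoietin signaling and 1 of 11 for heme synthesis, while 1 of 13 red cell enzymes fell. Leaving out array A of 12 mo alone (3.54% of all genes lower and 3.20% higher) gave 1 membrane, 2 iron supply, 1 transcription factor, 2 erythropoietin signaling and 1 heme synthesis gene that rose and 1 red cell enzyme that fell. Leaving out array B of 12 mo alone (5.88% lower and 4.98% higher) gave 2 membrane, 2 iron supply, 1 transcription factor and 3 erythropoietin signaling genes that rose and 2 transcription factors that fell. Without array A of 6 mo (0.799% lower and 0.573% higher) 1 iron supply gene rose. Without any 1 array of 2 or 21 mo, 0.00807% to 0.25% of all genes were called lower and 0.0807% to 0.363% higher. Between genotypes 1 gene of these lists passed, Gab1, which was lower in p53+/m than in WT (-1.21 ± 0.18 SE; adjusted p = 0.0478), and it kept its call in 4 of 12 settings with 1 array left out, losing it without any array of 2 mo, of 21 mo or of either mutant.

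Markers of other marrow cells were read in the same way, each list against itself between HSC and WBM. The summed level of the 8 erythroid genes (log2 of their summed linear values) lay between 5.54 and 5.91 on the 12 HSC arrays and at 15.8 on both WBM arrays. That of the 12 neutrophil markers measured lay between 8.67 and 12.2 in HSC and between 17.4 and 17.5 in WBM, and 8 of the 12 reached the detection line on at least 1 HSC array, S100a8 with a highest reading of 10.02. With age, 2 of 12 neutrophil markers and 1 of 10 HSC markers were called higher and 1 of 9 B-lineage markers lower. Among all genes 1.46% were called higher and 2.04% lower. The neutrophil marker Lcn2, at the line on 2 of 12 HSC arrays with a highest reading of 7.10, rose by 3.27 on the log2 scale. Mmp8 was called higher by 1.20 with every HSC reading under the detection line. These marker calls were not checked with arrays left out. Of 9 B-lineage markers 2 reached the line on an HSC array, and of 10 megakaryocyte markers 4, with Vwf, Pf4 and Itga2b on all 12. Of 10 HSC markers 9 did. At 2 mo 5 of the 10 were called higher than in WBM, among them Procr, Meis1 and Hlf, beside 1643 of all 12393 genes. The other 5 did not pass, among them Kit, Slamf1, Tal1 and Abcg2, the last at -1.40. Over all genes 54.1% reached the line on at least 1 HSC array and 47.2% on both WBM arrays.

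**Figure D4:**
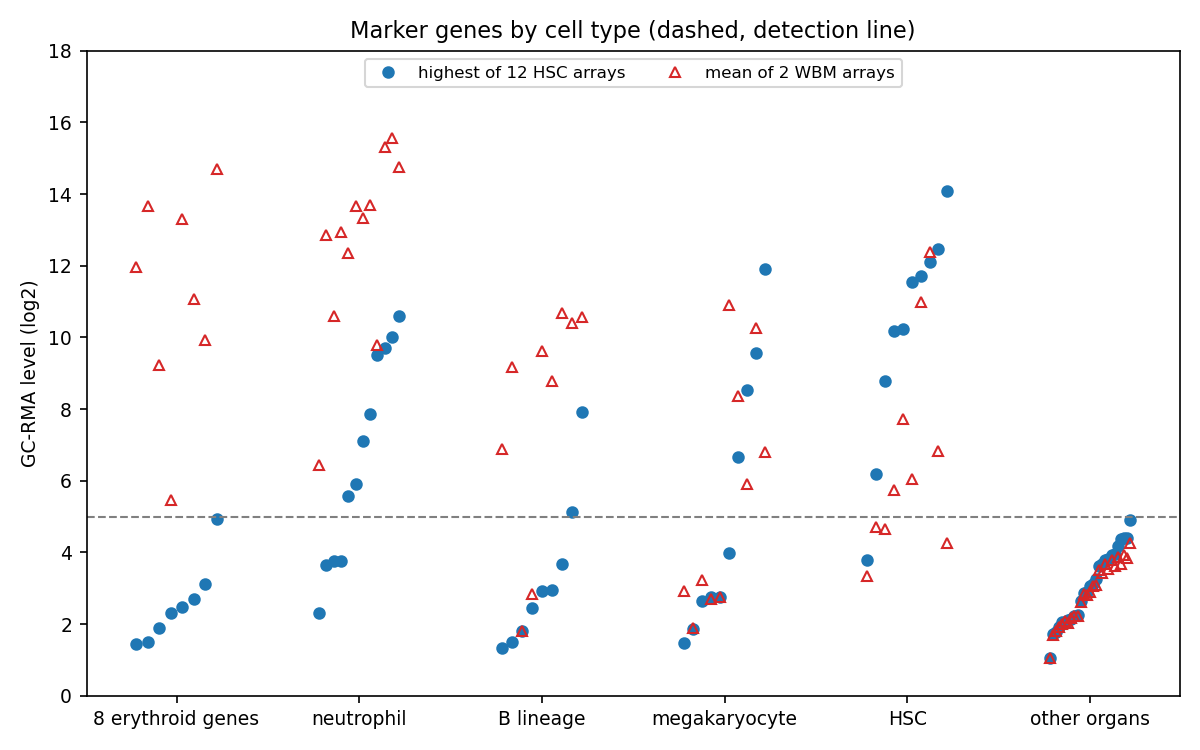
Highest level over the 12 HSC arrays (blue dots) and mean over the 2 WBM arrays (red triangles) for each marker gene (y axis, GC-RMA, log2) by cell type (x axis), with log2 5 as a dashed line. The 8 erythroid genes and the 27 genes of other organs have every HSC reading below the line, while 8 of 12 neutrophil markers have at least 1 above it.

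The genes whose levels follow each of the 8 most closely over the 14 arrays are given as a description. Pearson's r was at least 0.998 for the 3 nearest genes of every one, and it rests on the gap between the 2 WBM arrays and the 12 HSC arrays, so it says nothing about variation within either. The nearest genes were Epx, Blnk and Tada2b for Alas2, Kel, Blnk and 1300017J02Rik for Rhd, and Pou2af1, Rhag and Trim10 for Car1. They were Blk, Slc38a5 and 6430548M08Rik for Klf1, Ube2l6, Vpreb1 and Olr1 for Gata1, and Pld4, Hebp1 and Hpgd for Ermap. For Slc4a1 they were Adam19, Cachd1 and Serpinb2, and for Epor Klra17, Ccdc88c and Slc37a2. Genes of B cells (Blnk, Blk, Vpreb1 and Pou2af1) and of eosinophils (Epx) stand among them beside those of red cells (Kel, Rhag and Trim10).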

How the data were processed

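RNA was hybridized to 14 Affymetrix MOE430A arrays. Images were read by the authors in MAS 5.0, who deposited GC-RMA values on the log2 scale (GCRMA in the submitters' notes). The GCRMA version, and whether 1 run normalized all arrays, is not given in the sources used here. No filter was applied. Of 22626 probe sets besides 64 controls, the probe table gives 20380 a single symbol, 691 several and 1555 none. Where a gene had several probe sets, the one brightest on average over the 14 arrays was used. The tests were limma's moderated tests (version 3.58.1, R 4.3.3; lmFit, eBayes). P-values were adjusted by Benjamini-Hochberg over all probe sets, and a call needed an adjusted p under 0.05 and a 2-fold difference. Models of group means were fitted to the 10 WT arrays for HSC minus WBM and to the 12 HSC arrays for genotype, and a quadratic trend to the 8 WT HSC arrays for age. Arrays with the same letter did not deviate together (correlations between -0.31 and 0.16 over 21 pairs of groups), so letters were not used for pairing. Named in the text are all 8 genes with each of their probe sets, their relatives, up to 4 genes per list and direction past the threshold with arrays that do not overlap, and the 3 genes most like each. The genes and lists were chosen with earlier results of these data known. The fits were tested on simulated data with changes of known size. Changes of log2 1 were called for 13 of 67 probe sets (HSC of 2 mo against WBM), 21 of 67 (age) and 17 of 67 (p53+/m against WT). For changes of log2 2 the counts were 42, 55 and 49 of 67, and for log2 4 they were 60, 61 and 64 of 66. A gene that was not called may therefore have changed by log2 1, and in some cases by log2 2 or more. Whether these counts hold for genes under the detection line, as the 8 are in HSC, was not tested. Alternatives left out each array and varied the trend, the arrays in the model, the normalization, the filter, the threshold, the variance prior and the probe set of a gene. Those on list genes were chosen after seeing the data.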

Additional observations from a re-analysis of the deposited data

How the results depend on the processing

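The counts of the 8 erythroid genes that passed the test stayed at 8 of 8 for HSC of each age against WBM and at 0 of 8 for age and for each genotype comparison, in 139 of 139 alternatives. The alternative that took the probe set brightest in WT HSC left all 8 genes with the same probe sets and repeated the main fit. The dim probe set of Slc4a1, 1431743_a_at, was not called (limma adjusted p = 0.807 for HSC of 2 mo against WBM). It was not put in place of the brightest in any alternative. With the letters A and B as a replicate block, 8 of 8 were again lower at each age and 0 passed within HSC. Over 68 alternatives each, the difference between HSC and WBM ranged from -12.30 to -12.18 for Alas2 and from -3.72 to -2.83 for Epor, whose largest adjusted p was 0.032. The difference of no gene turned its direction there. Within HSC the largest size of any difference under an alternative was 0.34 with age and 0.73 between genotypes, and the signs of differences near 0 turned. Keeping only probe sets at log2 5 or above left none of the 8 to test within HSC, so no value is given for that filter there. Lists of the pathway depended on single arrays, as given with their counts. The limits are those of the arrays, where readings of the 8 in HSC lie under the detection line and may be background of the probe set, folds against WBM are lower limits, and 2 arrays a group limit the precision. WBM was measured at 2 mo only.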
